A study of Mus musculus with 13 samples.

Results

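The miR-28, miR-151 and miR-708 family was measured in mouse brain as 3 hairpins, mmu-mir-28a, mmu-mir-151 and mmu-mir-708, of the 903 hairpins listed in the small RNA counts. Each hairpin gave a 5p and a 3p arm, so the family comprised 6 of the 1514 listed pairs of a hairpin and a mature miRNA, and all 6 were listed in each of the 13 libraries. The members were taken by hairpin name, and the family was selected on the levels of its arms in the 4 groups of these libraries, which had been seen when it was proposed. Levels and their differences between groups are therefore given as a description, and counts of members past a threshold support no statement about the family.

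The libraries came from 2 brain regions, the hippocampus and the prefrontal cortex (PFC), of FVB/N mice, the wild-type parent strain, and of TgR mice. TgR mice are an FVB/N strain that constitutively overexpresses the human AChE-R, the stress-linked read-through form of acetylcholinesterase, from a CMV minimal promoter-enhancer, which is not specific to a cell type. The groups held 3 FVB/N hippocampus, 3 TgR hippocampus, 3 FVB/N PFC and 4 TgR PFC libraries, with no drug treatment named for any of them. The ages of the sequenced mice, and whether a hippocampus and a PFC came from the same mouse, are not given in the sources used here, and the transgene's mRNA is not part of small RNA counts.

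A miRNA hairpin is cut into a short duplex, and either of its strands, the 5p or the 3p arm, can be loaded into an Argonaute protein, where bases 2 to 8 (the seed) lead the pairing with target mRNAs. Hairpins in introns are usually transcribed with their host gene. In this family miR-28 is known as a brake on B cell growth, miR-151 is studied with its host, the focal adhesion kinase gene Ptk2, in cell migration, and miR-708 lies in Tenm4, a teneurin gene that acts in neuronal wiring and myelination.

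On the GRCm38 build with the GENCODE M21 annotation, each hairpin lay in an intron of a protein-coding gene on the same strand as its host. Mir28a was at chr16:24827855-24827940 on the plus strand, in an 82814 bp intron of Lpp, which encodes a LIM-domain protein of focal adhesions, in 3 of 3 transcripts that span it. Mir151 was at chr15:73254815-73254882 on the minus strand, in an intron of Ptk2 in 5 of 5 spanning transcripts (intron length 14556 to 17070 bp), and it also lay within the antisense gene 1700085D07Rik. Mir708 was at chr7:96249424-96249532 on the plus strand, in an intron of Tenm4 in 7 of 7 spanning transcripts (143365 to 183862 bp). In 0 of these transcripts did a hairpin touch an exon.

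The mature sequences show what mir-28a and mir-708 share. No sequence was available for miR-151-5p or miR-151-3p, so mir-151 could not be compared. They are from RefSeq on GRCm38.p6, which matched 4 of the 6 member arms, and are written 5′ to 3′ with the seed (bases 2 to 8) in capitals. The 5p arms come first, because 2 of them carry the same seed, with the relative miR-28b for comparison.
miR-28a-5p: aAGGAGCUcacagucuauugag
miR-708-5p: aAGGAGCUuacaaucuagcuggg
miR-28b: aGGAGCUCacaaucuauuuag
miR-28a-3p: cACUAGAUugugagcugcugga
miR-708-3p: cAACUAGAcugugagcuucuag

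The seed AGGAGCU belonged to miR-28a-5p and miR-708-5p and to no other of the 1679 mature miRNA names in the table (0.119% held it). The arms of miR-151 were not among these names. At any position, 9 names held these letters. Aligned from the first base, miR-28a-5p and miR-708-5p were identical at 16 of 22 positions, with the substitutions C9U, G13A, U18G, U19C, G20U and A21G from miR-28a-5p to miR-708-5p, counted from 1 at the 5′ end of miR-28a-5p. All 6 substitutions lay outside the seed. The 3p arms were identical at 17 of 21 aligned positions (C1A, U8C, G17U and G20A, counted on miR-28a-3p), but miR-708-3p starts 1 base earlier, so their seeds differ. miR-28b starts 1 base later than miR-28a-5p and matched it at 19 of 21 positions (G13A and G20U, counted on miR-28a-5p).

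The hairpins of the relatives were close to or at the floor. mir-28b was listed in none of the 13 libraries, and miR-28c, from a hairpin in Samd12, had 0 to 6 counts per library. The expression of the family in these tissues was thus measured almost entirely on the 3 member hairpins.

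Library totals ran from 8769851 to 18385985 counts, at which 3 counts, the limit that a count of 0 allows, were worth 0.163 to 0.342 CPM (counts after each library is brought to an equal total). The family held 0.190% to 0.250% of the counts of a library. These totals repeat reads, because 71 mature miRNAs were listed under more than 1 hairpin. With a single row for each mature miRNA, the totals were 5350259 to 11111883 counts. Shares of a library and CPM given here are relative to the totals with repeats. The marker miRNAs of neurons (miR-124, miR-9, miR-137 and miR-138, 18 pairs) were above 0 in all libraries, with a summed level of 216792 to 268519 CPM. A mature miRNA with several hairpins, such as miR-124 or miR-9, enters the sum of a list with each of them. The neuronal sum is thus not a share of separate reads. Markers of some other cells differed between the groups. The choroid plexus list (14 pairs, miR-204, miR-211 and the miR-34 and miR-449 families among them) summed to 1670 to 6003 CPM in TgR hippocampus, against 1002 to 1380 CPM in FVB/N hippocampus and 649.5 to 1017 CPM in PFC, and none of its pairs was at 0. TgR hippocampus replicates 1 and 3 were the highest, at 6003 and 5035 CPM. The red blood cell list (7 pairs) summed to 591 to 836 CPM in TgR hippocampus and 1287 to 2411 CPM elsewhere. The oligodendrocyte list (6 pairs) summed to 1452 to 2951 CPM in hippocampus and 594 to 871 CPM in PFC. The white blood cell list (6 pairs) summed to 396 to 452 CPM in hippocampus and 470 to 623 CPM in PFC. The vascular list (6 pairs) overlapped between the regions, at 10704 to 18383 CPM in hippocampus and 13542 to 18932 CPM in PFC.

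The 6 arms spanned a wide range of levels, in CPM on a common TMM scale. miR-151-3p was the highest, at a median of 944 CPM over the 13 libraries, which placed it 80th to 99th among the pairs of a library. miR-708-3p had a median of 692 CPM and miR-708-5p of 396 CPM, followed by miR-151-5p at 129.8 CPM and miR-28a-5p at 44.0 CPM. miR-28a-3p was the lowest, at 10.96 CPM and 63 to 261 counts per library. Small RNA libraries favour some sequences in ligation, so the order of levels between miRNAs is that of the reads.

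miR-708-3p, the more abundant arm of the Tenm4 hairpin, had the clearest separation of groups. Its level in FVB/N hippocampus replicates 1 to 3 was 709, 650.3 and 928 CPM (763 ± 147, SD, n = 3), and in TgR hippocampus 488, 564 and 456 CPM (502 ± 55.8, n = 3). In FVB/N PFC it was 671, 692 and 634 CPM (666 ± 29.2, n = 3), and in the TgR PFC libraries 759, 721, 751 and 757 CPM (747 ± 17.7, n = 4). The 3 TgR hippocampus libraries were the lowest of the 13. The TgR PFC libraries lay above all FVB/N PFC libraries, and those in turn above all TgR hippocampus libraries. FVB/N hippocampus had the highest mean and overlapped with both PFC groups.

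Its partner miR-708-5p, which carries the seed shared with miR-28a-5p, had 309, 451 and 399 CPM in FVB/N hippocampus (386 ± 71.6, n = 3) and 378, 403 and 264 CPM in TgR hippocampus (349 ± 73.9, n = 3). The PFC levels were 364, 349 and 452 CPM in FVB/N (388 ± 55.9, n = 3) and 428, 352, 407 and 396 CPM in TgR mice (396 ± 32.2, n = 4). All neighbouring groups in the order of its means overlapped.

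miR-28a-5p, the main arm of the Lpp hairpin, was higher in hippocampus than in PFC in each library. It had 71.1, 45.6 and 57.2 CPM in FVB/N hippocampus (58.0 ± 12.7, n = 3) and 76.5, 61.3 and 56.4 CPM in TgR hippocampus (64.7 ± 10.5, n = 3). In FVB/N PFC it had 42.9, 43.6 and 44.0 CPM (43.5 ± 0.573, n = 3), and in TgR PFC 40.7, 35.4, 40.1 and 43.0 CPM (39.8 ± 3.17, n = 4). The lowest hippocampal library, FVB/N replicate 2 at 45.6 CPM, lay just above the highest PFC library at 44.0 CPM, and the genotypes overlapped within each region.

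The minor arm miR-28a-3p had 17.4, 13.4 and 15.0 CPM in FVB/N hippocampus (15.3 ± 2.01, n = 3) and 13.9, 9.56 and 11.3 CPM in TgR hippocampus (11.6 ± 2.21, n = 3). In PFC it had 8.62, 5.58 and 12.3 CPM in FVB/N (8.83 ± 3.37, n = 3) and 10.8, 9.71, 8.71 and 10.96 CPM in TgR mice (10.04 ± 1.04, n = 4). All FVB/N hippocampus libraries lay above all FVB/N PFC libraries, while neighbouring groups in the order of the means overlapped.

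miR-151-3p, the main arm of the Ptk2 hairpin, had 1002, 807 and 1116 CPM in FVB/N hippocampus (975 ± 156, n = 3) and 755, 736 and 927 CPM in TgR hippocampus (806 ± 105, n = 3). In PFC it had 765, 1131 and 1021 CPM in FVB/N (972 ± 188, n = 3) and 1078, 944, 923 and 980.1 CPM in TgR mice (981 ± 68.8, n = 4). The lowest mean was that of TgR hippocampus, and all neighbouring groups overlapped.

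The other arm, miR-151-5p, had its highest mean in TgR hippocampus instead. It had 123, 118 and 108 CPM in FVB/N hippocampus (116 ± 7.90, n = 3) and 160.0, 189 and 139.9 CPM in TgR hippocampus (163 ± 24.7, n = 3). In PFC it had 152, 177 and 100.2 CPM in FVB/N (143 ± 39.1, n = 3) and 101, 203, 129.8 and 98.6 CPM in TgR mice (133 ± 48.8, n = 4). The hippocampal groups did not overlap, whereas the PFC libraries of either genotype spread over the range of both.

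**Figure D1:**
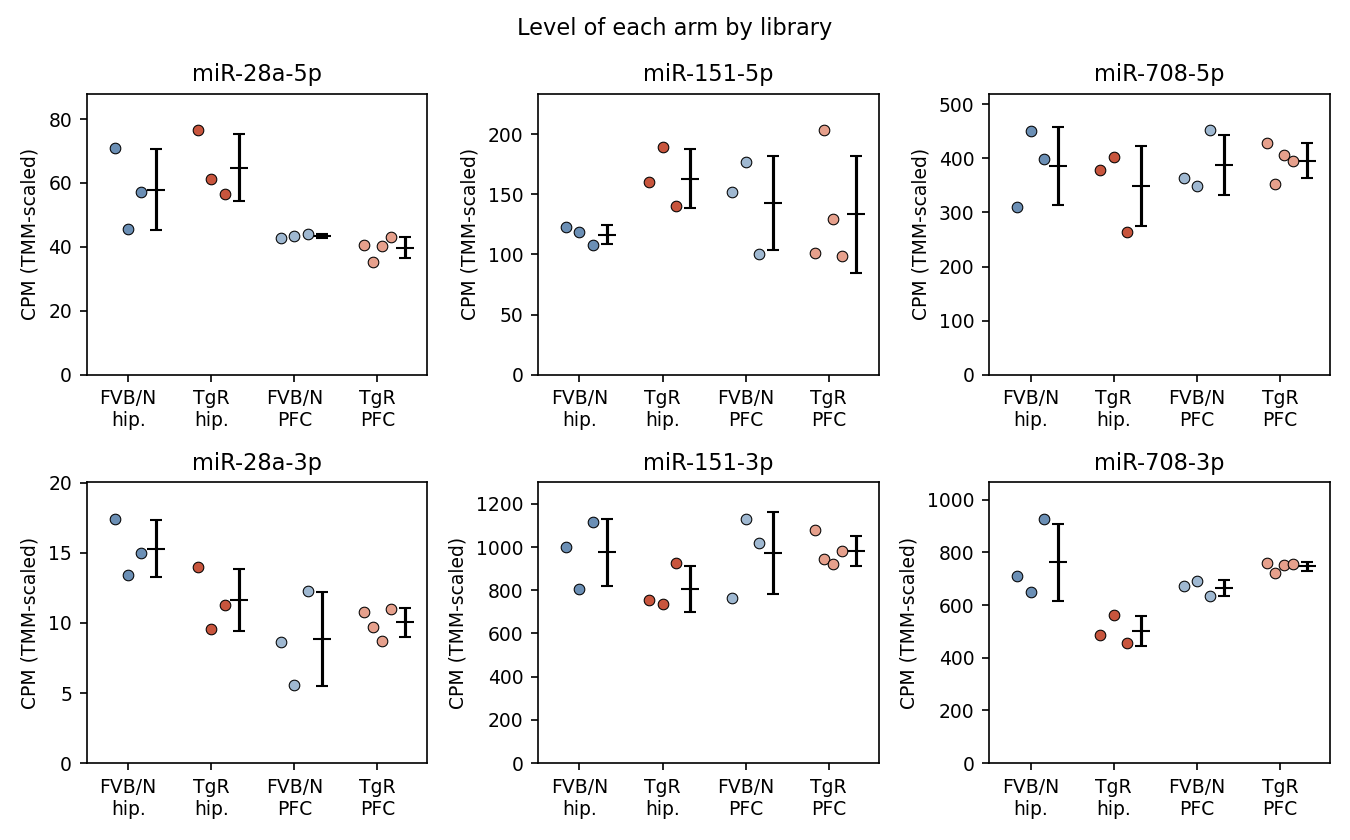
Level of each arm in each library (vertical axis, CPM on the TMM scale, from 0) for the 4 groups of genotype and region (horizontal axis), with points for libraries and bars for the mean ± SD. miR-708-3p was lowest in the 3 TgR hippocampus libraries (456 to 564 CPM), and miR-28a-5p was at 45.6 CPM or above in all hippocampal and at 44.0 CPM or below in all PFC libraries.

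The arms also differed in how far replicates lay apart. The within-group SD on the log2 scale was 0.15 for miR-708-3p, lower than that of all but 8.66% of 751 tested pairs, and 0.36 for miR-151-5p, against a median of 0.32 over all pairs. The remaining arms had 0.20 (miR-28a-5p), 0.21 (miR-151-3p), 0.23 (miR-708-5p) and 0.32 (miR-28a-3p). Between the highest and the lowest of the 13 libraries the level differed 1.54-fold for miR-151-3p and 3.12-fold for miR-28a-3p.

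The first question was how the family differed between TgR and FVB/N mice in the hippocampus. miR-708-3p had a log2 fold change of -0.59 (SE 0.16), and miR-151-5p one of 0.49 (SE 0.16), and these 2 of the 6 arms had groups that did not overlap, as had 24.7% of the 726 tested pairs (11.4% with TgR higher and 13.2% with TgR lower). The other arms had log2 fold changes of -0.38 (SE 0.19) for miR-28a-3p, -0.26 (SE 0.15) for miR-151-3p, 0.17 (SE 0.20) for miR-28a-5p and -0.15 (SE 0.20) for miR-708-5p. With edgeR's quasi-likelihood test and Benjamini-Hochberg adjustment over all tested pairs, 0 of 6 arms passed 0.05, where 3.44% of all pairs did. An unadjusted p under 0.05 was found for 2 arms and 17.5% of all pairs, and DESeq2 called 1 arm, miR-708-3p, and 7.44% of all pairs. The median log2 fold change was -0.21 over the 6 arms and -0.0031 over all pairs. In these bulk samples fewer cells of a type and less RNA per cell cannot be told apart.

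The 3 TgR hippocampus libraries with low miR-708-3p were also those with high choroid plexus and low red blood cell miRNAs. Of the choroid plexus list 7 of 14 pairs rose, and of the red blood cell list 2 of 7 fell, in TgR against FVB/N hippocampus by the same edgeR test. Their part in the result was not tested. Against FVB/N, TgR hippocampus replicate 2 alone, the library lowest in choroid plexus miRNAs of its group and chosen after that was seen, gave log2 fold changes of -0.46 (SE 0.28) for miR-708-3p and 0.67 (SE 0.24) for miR-151-5p. These SE rest on the spread of other libraries. Replicate 2 still differed from FVB/N hippocampus in choroid plexus (1670 against 1002 to 1380 CPM) and red blood cell miRNAs (754 against 1326 to 1491 CPM). Its use alone therefore does not remove these differences.

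In PFC the genotypes were close. The log2 fold changes (TgR against FVB/N) were 0.14 (SE 0.10) for miR-708-3p, 0.15 (SE 0.27) for miR-28a-3p, -0.16 (SE 0.13) for miR-28a-5p and -0.11 (SE 0.32) for miR-151-5p. Those of miR-151-3p and miR-708-5p were -0.0098 (SE 0.14) and 0.00036 (SE 0.13). miR-708-3p was the 1 arm without overlap, as were 5.07% of 730 pairs (3.7% with TgR higher). By edgeR 0 of 6 arms and 0.137% of all pairs passed, and 0 arms and 2.6% of all pairs had an unadjusted p under 0.05. DESeq2 likewise called 0 arms and 0.137% of all pairs.

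Between regions, in FVB/N mice, both arms of mir-28a were higher in hippocampus. The log2 fold change of hippocampus against PFC was 0.80 (SE 0.30) for miR-28a-3p and 0.43 (SE 0.22) for miR-28a-5p, and these 2 arms did not overlap between regions, like 23% of 718 pairs (13.2% with hippocampus higher). For the other arms it was 0.21 (SE 0.18) for miR-708-3p, 0.020 (SE 0.20) for miR-151-3p, 0.013 (SE 0.21) for miR-708-5p and -0.28 (SE 0.24) for miR-151-5p. By edgeR 0 of 6 arms passed, where 3.34% of all pairs did, and 1 arm and 15.2% of all pairs had an unadjusted p under 0.05. DESeq2 called 0 arms and 5.01% of all pairs.

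In TgR mice 2 of the 6 arms passed between the regions, in opposite directions. miR-28a-5p was higher in hippocampus (log2 fold change 0.72, SE 0.14) and miR-708-3p lower (-0.55, SE 0.10). Both were also the arms without overlap, where 11.2% of 738 pairs passed (5.56% higher and 5.69% lower in hippocampus) and 22.9% did not overlap. DESeq2 called 2 arms as well, and 17.3% of all pairs, and an unadjusted p under 0.05 was found for 3 arms and 24.1% of all pairs. The others had 0.31 (SE 0.27) for miR-151-5p, 0.23 (SE 0.17) for miR-28a-3p, -0.16 (SE 0.15) for miR-708-5p and -0.26 (SE 0.11) for miR-151-3p. In the same comparison 8 of 14 choroid plexus and 5 of 6 oligodendrocyte pairs were called higher in hippocampus. Called lower were 3 of 7 red blood cell, 2 of 6 vascular and 1 of 6 white blood cell pairs. The part of these cells in the result was not tested. With TgR hippocampus replicate 2 as the only TgR hippocampus library, the log2 fold changes were 0.58 (SE 0.18) for miR-28a-5p and -0.45 (SE 0.14) for miR-708-3p, and 0 arms passed. The comparisons between regions use the same libraries as those between genotypes, so they are not separate evidence.

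The genotype effect in hippocampus minus that in PFC was largest in size for miR-708-3p, at -0.77 on the log2 scale (SE 0.20). It was 0.59 (SE 0.36) for miR-151-5p, -0.58 (SE 0.35) for miR-28a-3p, -0.29 (SE 0.23) for miR-151-3p, 0.29 (SE 0.25) for miR-28a-5p and -0.18 (SE 0.25) for miR-708-5p. In this test of the difference itself 0 of 6 arms passed by edgeR, where 0.533% of 751 pairs did, and 1 arm and 8.12% of all pairs had an unadjusted p under 0.05. DESeq2 called 1 arm, miR-708-3p, and 3.46% of all pairs.

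**Figure D2:**
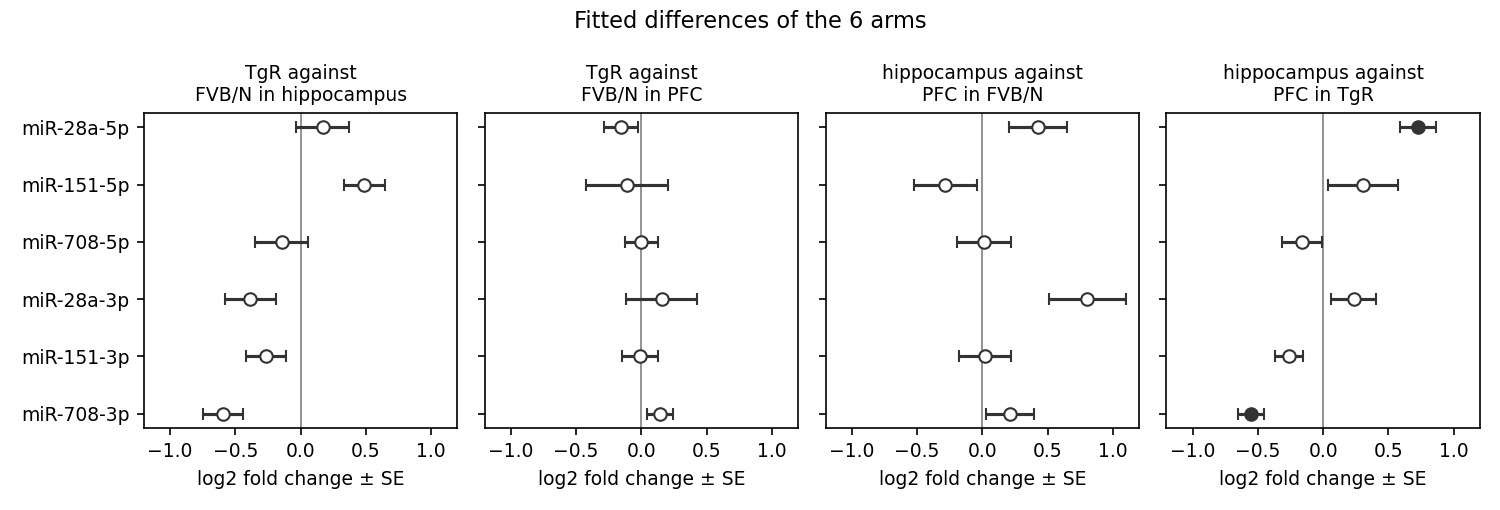
Fitted log2 fold change (horizontal axis) with its SE (bars) for the 6 arms in the 4 comparisons of genotype and region. Filled circles mark the 2 arms that passed an adjusted p of 0.05, both in hippocampus against PFC of TgR mice, where miR-28a-5p was at 0.72 and miR-708-3p at -0.55.

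Counts for other intronic hairpins are given as a description and support no statement about the family. Of a list of 31 hairpins in introns of protein-coding genes (60 listed pairs, miR-128, miR-218, miR-26 and miR-103 among them), 0 of 51 tested pairs were called higher and 1 lower in TgR against FVB/N hippocampus, and 0 and 1 in PFC. Between hippocampus and PFC 1 was called higher and 2 lower of 49 in FVB/N mice, and 8 higher and 5 lower of 51 in TgR mice. Over all tested pairs 3.44%, 0.137%, 3.34% and 11.2% were called in these comparisons, in the same order. This list holds miR-204, miR-211 and miR-338, which also stand in the choroid plexus and oligodendrocyte lists.

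The division of each hairpin's counts between its arms needs no scaling between libraries. It is made from the same counts as the levels, so it is not independent of the choice of members. The 5p arm dominated in mir-28a and the 3p arm in mir-151 and mir-708, in all 13 libraries. The Wilson 95% interval of a library's share was 3.44 to 7.73 percentage points wide for mir-28a, 0.838 to 1.43 for mir-151 and 1.37 to 1.82 for mir-708, which covers counting error only.

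For mir-28a the 5p share was 80.3%, 77.3% and 79.2% in FVB/N hippocampus (78.9 ± 1.54, SD, n = 3) and 84.6%, 86.5% and 83.3% in TgR hippocampus (84.8 ± 1.61, n = 3). In PFC it was 83.3%, 88.6% and 78.2% in FVB/N (83.4 ± 5.25, n = 3) and 79.0%, 78.5%, 82.2% and 79.7% in TgR mice (79.8 ± 1.63, n = 4). The TgR hippocampus libraries lay above all FVB/N hippocampus libraries, while the PFC groups overlapped.

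For mir-151 the 5p share was 10.9%, 12.8% and 8.79% in FVB/N hippocampus (10.8 ± 2.00, n = 3) and 17.5%, 20.4% and 13.1% in TgR hippocampus (17.0 ± 3.69, n = 3). In PFC it was 16.5%, 13.5% and 8.94% in FVB/N (13.002 ± 3.83, n = 3) and 8.59%, 17.7%, 12.3% and 9.14% in TgR mice (11.9 ± 4.19, n = 4). Again the hippocampal groups did not overlap and the PFC groups did.

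For mir-708 the 5p share was 30.4%, 40.9% and 30.1% in FVB/N hippocampus (33.8 ± 6.19, n = 3) and 43.7%, 41.7% and 36.7% in TgR hippocampus (40.7 ± 3.57, n = 3). In PFC it was 35.2%, 33.5% and 41.6% in FVB/N (36.8 ± 4.29, n = 3) and 36.1%, 32.8%, 35.2% and 34.3% in TgR mice (34.6 ± 1.39, n = 4). FVB/N hippocampus replicate 2 lay within the TgR libraries, so these groups overlapped in both regions.

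**Figure D3:**
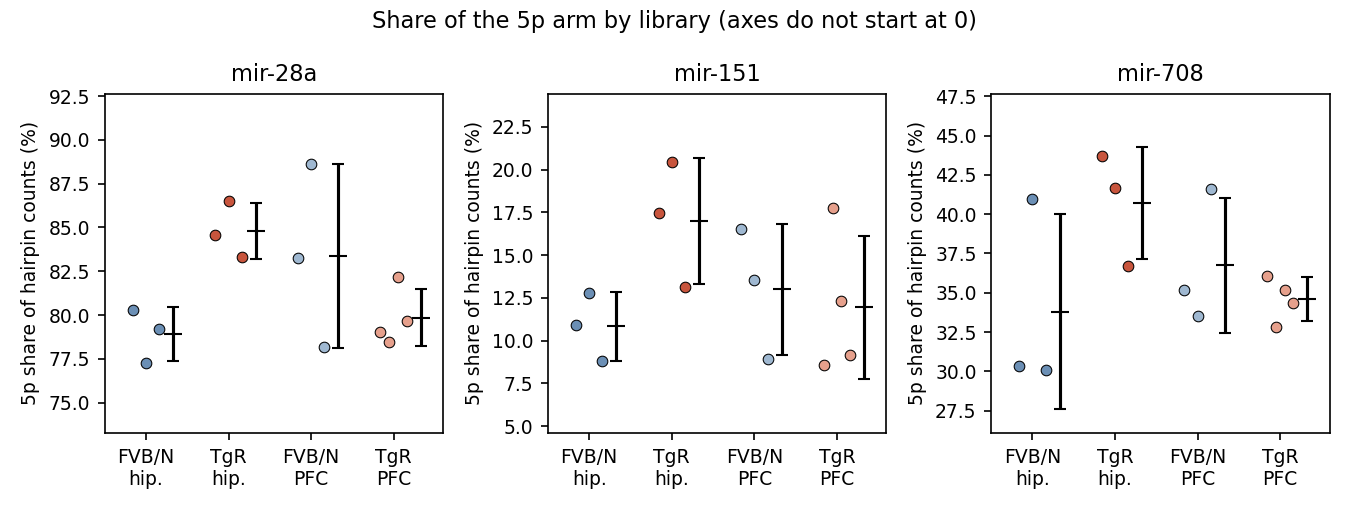
Share of the 5p arm in the counts of each hairpin (vertical axis, percent, not starting at 0) by library and group, with points for libraries and bars for the mean ± SD. In hippocampus the TgR mean was above the FVB/N mean for mir-28a (84.8% and 78.9%), mir-151 (17.0% and 10.8%) and mir-708 (40.7% and 33.8%).

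Averaged over both regions, the TgR minus FVB/N difference in the 5p share was 1.18 percentage points for mir-28a (p = 0.58), 2.56 for mir-151 (p = 0.26) and 2.37 for mir-708 (p = 0.37), in two-sided exact permutation tests that exchanged genotypes within region (700 assignments). The hippocampus minus PFC difference, averaged over genotypes, was 0.27 points for mir-28a (p = 0.91), 1.45 for mir-151 (p = 0.51) and 1.56 for mir-708 (p = 0.55) by the same exact test. Adjusted over all 277 hairpins with at least 100 counts in each library, these 6 values were 0.72 to 1.0.

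The genotype difference was 5.88 points in hippocampus and -3.52 in PFC for mir-28a. It was 6.18 and -1.06 for mir-151, and 6.90 and -2.17 for mir-708. Opposite signs in the regions are not particular to the family. For example, mir-335 had 10.5 and -3.16 points, mir-770 10.5 and -3.31, and mir-345 7.40 and -4.13. The signs were the other way round for mir-132, at -0.80 and 5.31 points. Of all 277 hairpins 42.6% were above 0 in hippocampus and 50.2% in PFC. The share of hairpins with opposite signs was not counted, so these signs support no statement about the family. Within hippocampus the exact permutation p was 0.10 for mir-28a and mir-151, the smallest that 3 against 3 libraries allow, and 0.20 for mir-708. Within PFC it was 0.29, 0.77 and 0.43 by the exact test, where 0.029 is the smallest possible. The hippocampal minus the PFC effect was 9.39 points for mir-28a (p = 0.016, exact permutation, 0.67 adjusted over 277 hairpins), 7.23 for mir-151 (p = 0.11, adjusted 0.73) and 9.07 for mir-708 (p = 0.087, adjusted 0.69). The permutations for this difference exchanged genotypes within each region, so they assume no genotype effect in either region. They do not test whether the effects of the 2 regions are equal. The tests within a region and of this difference were chosen after the shares had been seen. None of the 3 hairpins passed over all hairpins.

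Set among the 277 hairpins, the hippocampal differences of mir-708, mir-151 and mir-28a were exceeded by those of 5, 8 and 10 hairpins, and 13, 13 and 14 hairpins were lower in TgR mice by more than these sizes. For 160 of the 277 hairpins (57.8%) the mean 5p share was under 5% or over 95%, where a difference in points has little room. The median difference over all hairpins was -0.0079 points, and 42.6% were above 0. The 277 hairpins are not all separate, because copies that share their mature miRNAs enter with the same reads. Copies of mir-467a each stood at -2.15 points and copies of mir-669a at -4.47. Ranks, shares and adjusted p over the 277 hairpins count such copies singly. mir-28a and mir-151 were 2 of the 9.03% of hairpins with a higher 5p share in all TgR than in all FVB/N hippocampus libraries, and another 10.1% had a lower share in all of them. In PFC 1.81% of hairpins, and none of the 3, had groups without overlap. Over all hairpins 0 passed the adjusted exact permutation test for genotype, region or the difference of effects, and 9.39%, 14.1% and 2.89% had an unadjusted p under 0.05. The last of these tests again assumes no genotype effect in either region.

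**Figure D4:**
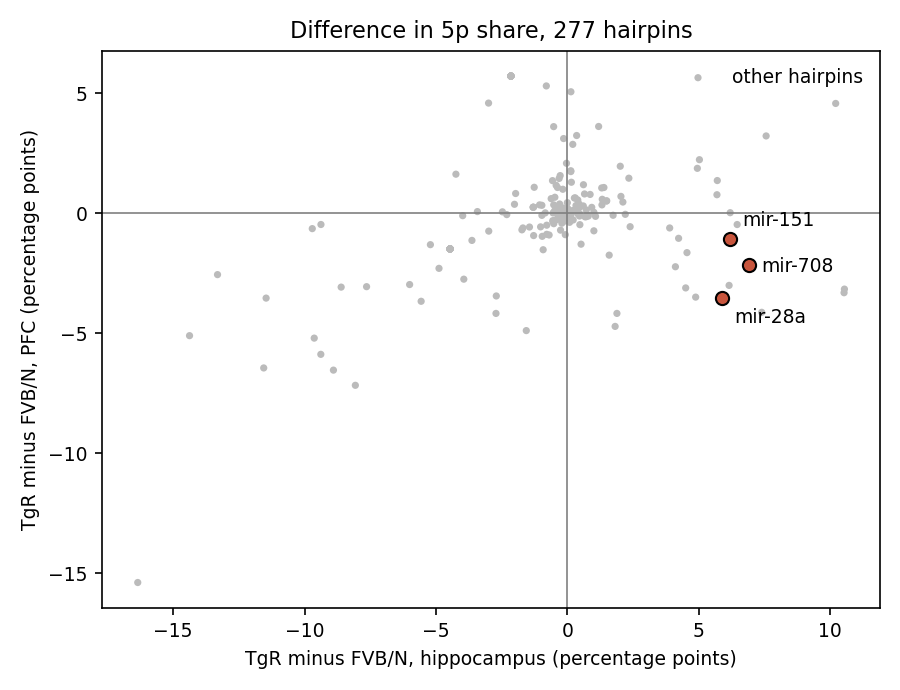
Difference in the 5p share, TgR minus FVB/N in percentage points, in hippocampus (horizontal axis) and PFC (vertical axis) for 277 hairpins, each a point. The 3 family hairpins (red) lay at 5.88 to 6.90 points in hippocampus and -3.52 to -1.06 points in PFC.

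The shared seed of miR-28a-5p and miR-708-5p allows their levels to be summed as 1 pool. The pool was 444 ± 58.9 CPM in FVB/N hippocampus, 413 ± 80.2 in TgR hippocampus, 432 ± 56.4 in FVB/N PFC and 436 ± 34.6 in TgR PFC (SD, n = 3, 3, 3 and 4), and the groups overlapped. miR-28a-5p made up 13.5% ± 4.82 of it in FVB/N hippocampus and 15.9% ± 2.35 in TgR hippocampus, against 10.2% ± 1.16 in FVB/N PFC and 9.14% ± 0.475 in TgR PFC. The TgR hippocampus libraries (13.2% to 17.6%) lay above all PFC libraries (8.67% to 11.1%), while those of FVB/N hippocampus (9.19% to 18.7%) overlapped with PFC. Most of the reads that carried this seed were thus from mir-708 in each library, at 4.35 to 10.5 times the count of miR-28a-5p.

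Across the 13 libraries, which include both regions and genotypes, the 2 arms of a hairpin did not always vary alike. Pearson's r of the log2 levels was 0.57 between the arms of mir-28a, 0.40 between those of mir-708 and -0.43 between those of mir-151. miR-151-3p and miR-708-3p, the dominant arms of their hairpins, had an r of 0.59, and miR-28a-5p and miR-708-3p one of -0.45. All these points share their library and its scaling.

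Of 749 pairs from other hairpins, the 3 with a pattern most like miR-708-3p over the 13 libraries were miR-434-5p (r = 0.892), miR-679-5p (0.871, mean 5.25 CPM) and miR-148a-3p (0.852). Those most like miR-28a-5p were let-7b-5p (0.868), miR-24-1-5p (0.865) and miR-7080-5p (0.858), the last at a mean of only 0.588 CPM. Those most like miR-151-3p were miR-139-3p (0.866), miR-1843b-3p (0.863) and miR-1198-5p (0.858). All are the highest of 749 values, and picking the highest favours large r. The libraries include both regions and genotypes, so differences between groups enter these values.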

How the data were processed

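Total RNA (300 ng, RIN 8.6 to 9.3) was made into small RNA libraries with ligated adapters. The authors checked reads with FastQC 0.11.8, aligned them to miRBase 21 with miRExpress 2.0 and deposited raw counts for each pair of hairpin and mature miRNA. Unlisted pairs were taken as 0. Genotype and region came from the sample titles. Members and lists were chosen with earlier results of these data known. The pairs named are all arms of mir-28a, mir-151, mir-708 and their relatives mir-28b and mir-28c, and the 3 pairs most correlated with each hairpin's main arm. Each of the 6 member arms is listed under a single hairpin. Whether some of its reads were also listed under a mature miRNA of similar sequence was not checked.

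Counts of each comparison were filtered (filterByExpr, minimum 10), TMM-normalized and tested with edgeR 4.0.16 (quasi-likelihood, R 4.3.3), without a block, with Benjamini-Hochberg adjustment over all tested pairs and a threshold of 0.05. The difference of genotype effects used all 13 libraries. All 6 arms passed the filter in each comparison. The SE was derived from the fold change and its F statistic. CPM were computed on 1 TMM scale over the 13 libraries, and correlations on log2 CPM with a prior count of 2. Alternatives were DESeq2 1.42.0 (the authors' tool), its size factors in edgeR, library size alone, no filter, a single hairpin per mature miRNA, a replicate block, all libraries in 1 fit and leaving out libraries. The scripts were tested on simulated data. Replicates differed by more than sampling noise in each group. Hippocampus titles do not name animals, but the paper reports 3 TgR and 3 FVB/N mice for the hippocampus. The p-values weigh differences against the spread between these samples.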

Additional observations from a re-analysis of the deposited data

How the results depend on the processing

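Which arms passed an adjusted p of 0.05 depended on the setting in 4 of 5 comparisons, and the cause was not tested. In TgR against FVB/N hippocampus 1 arm, miR-708-3p, passed with DESeq2, with no filter and with all 13 libraries in 1 fit, and 0 passed when any 1 library was left out; its log2 fold change stayed between -0.73 and -0.47. In hippocampus against PFC of TgR mice 2 or 3 arms passed with 1 library left out (3 without TgR PFC replicate 2, with miR-151-5p), 1 with the replicate block, which lost miR-708-3p, and 0 without TgR hippocampus replicates 1 and 3, an alternative chosen after seeing the data that leaves 1 library in that group, assumed to vary like the others. In FVB/N mice 0 or 1 arm passed with 1 library left out (miR-28a-3p, at a log2 fold change of 1.14, without FVB/N PFC replicate 3). For the difference of genotype effects DESeq2 called 1 arm and each left-out library gave 0. In PFC 0 arms, and 1 of all pairs, passed under each setting run.

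Whether equal replicate numbers pair the samples could not be decided. In no comparison were all same-number correlations above 0.1. Between regions they were 0.13, 0.050 and 0.19 in FVB/N mice and 0.11, 0.41 and -0.13 in TgR mice (replicates 1 to 3). The main tests took the libraries as separate mice. Replicate numbers here are those of the sample titles; the deposited FVB/N PFC counts carry a different numbering, so which PFC libraries share a number, in these correlations and in the block, is uncertain. The replicate block changed no other count of arms. It gave 9 in place of 25 called pairs over all pairs in the hippocampal genotype comparison and 54 in place of 83 between regions in TgR mice.

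Counts over all pairs moved by more than 1.5 times elsewhere too. The 25 pairs of the hippocampal comparison became 54 with DESeq2, 63 with no filter and 1 to 28 with 1 library left out (1 without FVB/N replicate 3, 9 without TgR replicate 3, 12 without FVB/N replicate 1), and 1 without TgR replicates 1 and 3. The 24 between regions in FVB/N mice became 56 with no filter, 40 with all libraries in 1 fit and 4 to 51 with 1 left out. The 83 in TgR mice became 128 with DESeq2, 45 to 128 with 1 left out and 4 without TgR hippocampus replicates 1 and 3. The 4 for the difference of effects became 26 with DESeq2, 13 with no filter, 2 to 8 with 1 left out and 0 without those replicates.

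With 1 library left out, the genotype difference in the 5p share ranged from -0.12 to 2.50 percentage points for mir-28a (below 0 without FVB/N PFC replicate 3), 1.54 to 3.53 for mir-151 and 1.44 to 4.15 for mir-708. The region difference ranged from -1.03 to 1.59 for mir-28a (-1.03 without FVB/N PFC replicate 3, -0.16 without TgR hippocampus replicate 2, -0.082 without FVB/N hippocampus replicate 1), 0.44 to 2.43 for mir-151 and -0.22 to 2.78 for mir-708 (below 0 without FVB/N hippocampus replicate 2). With group medians in place of means, the genotype difference was 5.45 points for mir-708 (2.37 with means) and 0.74 for mir-28a (1.18), and the region difference 0.58 for mir-28a (0.27). No such test passed under any setting run. At 63 to 261 counts per library, counting error is largest for miR-28a-3p.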
